A study of Mus musculus with 6 samples.

Results

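Collagen genes were followed in mouse keratinocytes in culture, on 6 Affymetrix arrays that probe whole transcripts. The members were all genes whose platform symbol is Col, a number, the letter a and a number. This rule uses the name and not the values, but it was set with earlier results of these data known. They were 44 of the 19938 genes with a probe set of their own symbol, and the brightest probe set stood for a gene that had more than 1. By the form of their product they were sorted into 11 fibrillar, 8 basement membrane, 2 hemidesmosomal and anchoring fibril, 9 FACIT (fibril-associated), 6 beaded filament, 3 short chain network, 3 other transmembrane and 2 other collagens. The Entrez identifiers of all 44 were found in the RefSeq table, which gave the same symbols.

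The cells were isolated from C57BL/6 skin at embryonic stage E18.5. They grew for 2 to 5 days, were given calcium, which sets off keratinocyte differentiation, and grew for another 3 to 5 days. Each of 3 groups had 2 arrays, with RNA of 2 mice on each array, so a mouse cannot be read alone. Control animals were Ovol2flox/+ and in addition either Ovol1+/- or carriers of K14-Cre, a recombinase driven by a basal keratinocyte promoter. The Ovol1 KO group was Ovol1-/-. The Ovol1/2 double knockout (DKO) group was Ovol2flox/- with K14-Cre on the Ovol1-/- background, so it shared the loss of Ovol1 with the KO group. The products of Ovol1 and Ovol2 are transcription factors with zinc fingers. All groups received calcium.

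Collagens are trimeric proteins of the extracellular matrix whose chains wind into a triple helix. Dermal fibroblasts make the fibrillar types, while keratinocytes add to the basement membrane beneath them. There, type IV collagen forms a sheet, type XVII collagen crosses the keratinocyte membrane in the hemidesmosome, and type VII collagen builds the anchoring fibrils below. Chains are hydroxylated in the endoplasmic reticulum, trimmed outside the cell and cross-linked.

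Values are log2(intensity + 16) after quantile normalization, and a difference is between group means on that scale. A gene was called where limma's Benjamini-Hochberg adjusted p over all 19938 genes was below 0.05. With 2 arrays a group, the fit pools 1 spread per gene over the 3 groups. The table has no detection call, so a low level cannot be told from background, and levels are compared only within a probe set. The p-values measure the spread between pools labelled as biological replicates. This spread includes any effect of replicate number and of the Xist split within the Ovol1 KO group, given below.

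Several facts of the whole series touch these results. Neither targeted gene was called lower where it was deleted. Ovol1 lay at 10.27 and 9.85 in control and at 10.53 and 10.22 in Ovol1 KO, with both DKO arrays highest at 10.58 and 10.59, and Ovol2 lay at 8.12 and 8.82 in control and at 8.71 and 8.32 in DKO. Whether the probe sets lie in the deleted parts is not given in the sources used here, so they check no label. All arrays carry a female label, but Xist lay between 4.59 and 4.71 in both control arrays and Ovol1 KO 1 and between 11.97 and 12.26 in Ovol1 KO 2 and both DKO arrays. The Y-linked gene Kdm5d split the same arrays, at 14.70 in the former and at or below 7.64 in the latter. Genotype and this split cannot be told apart between DKO and control. Within a group, Xist differed widely only between the 2 Ovol1 KO arrays. A fit with Xist as a covariate thus takes its slope almost wholly from that pair, which also differs in replicate number. It cannot separate the split from genotype. The basal keratins Krt5 and Krt14 lay between 13.61 and 13.94 on every array, but other keratinocyte markers did not stay level. Of 12 such markers 2 rose, 1 fell (Itgb4) and 9 did not pass in each DKO comparison. The 2 were the keratins of differentiating cells, Krt1, by 4.15 against control (SE 0.64, limma adjusted p = 0.022), and Krt10, by 4.14 (SE 0.37, limma adjusted p = 0.0035). Of the markers of other cells, 1 of 8 for melanocytes (Kit) and 1 of 3 measured for Schwann cells (Mbp) fell in each DKO comparison, and 0 were called for endothelium (7), smooth muscle and pericytes (7), cartilage (6) and macrophages (6). The part of these shifts in the collagen results was not tested.

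With both genes deleted, few collagens stood apart from the other groups. Against control, limma called 0 of 44 collagen genes, where 3.2% of all genes tested were called, 0.943% higher and 2.26% lower, and 4 collagens had an unadjusted p below 0.05, where 14.5% of all genes did. These 4 were Col5a2, Col8a1, Col4a2 and Col4a1. Against Ovol1 KO, limma called 1 of 44, where 2.15% of all genes were called, and this was the fibrillar gene Col5a2. It was called higher, where 0.657% of all genes were, and 0 collagens were called lower, where 1.49% were. An unadjusted p below 0.05 was found for 3 collagens, Col5a2, Col8a1 and Col4a2, where 13.3% of all genes had one. Both comparisons use the same DKO arrays and are not independent. The median difference of the 44 was 0.0005 in DKO against control, beside 0.02 over all genes, and 0.11 in DKO against Ovol1 KO, beside 0.09 over all genes. Fewer cells of a type and less RNA per cell cannot be told apart in such bulk samples.

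**Figure D1:**
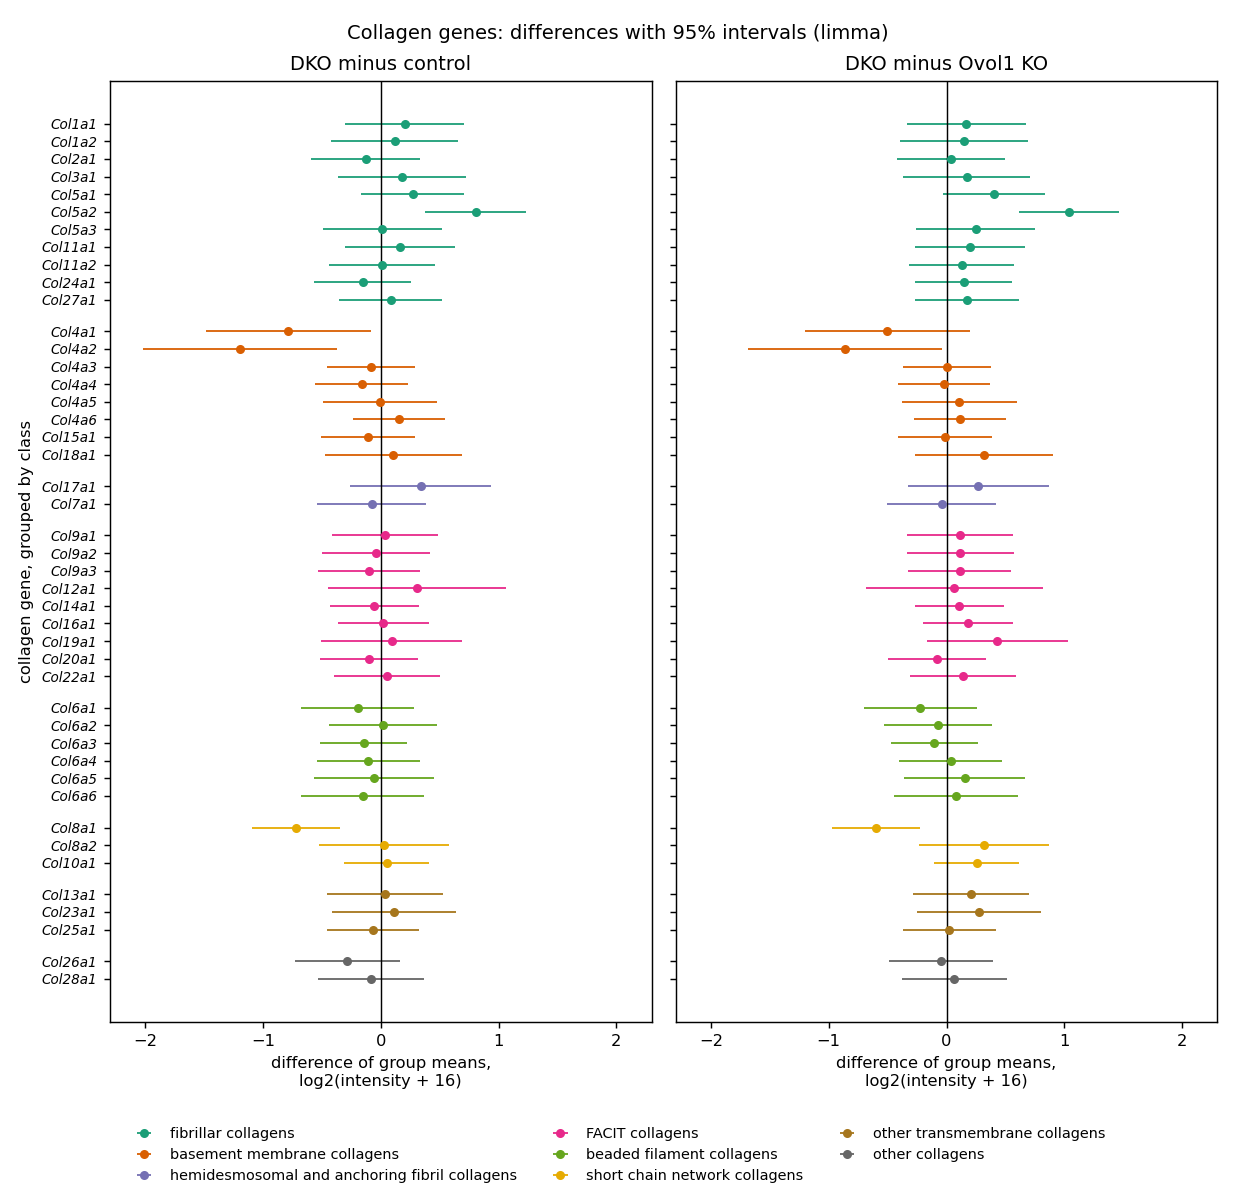
Difference of group means in log2(intensity + 16) for each of the 44 collagen genes, with 95% intervals from limma, coloured by class; the left panel shows DKO minus control and the right panel DKO minus Ovol1 KO. Most points lie near 0, while Col5a2 lies to the right and Col4a1, Col4a2 and Col8a1 lie to the left in both panels.

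Among the fibrillar collagens, Col5a2 rose in DKO against Ovol1 KO. Col5a2 encodes a chain of type V collagen, which sits inside type I fibrils and limits their width. It lay at 7.24 and 6.97 in the control arrays, 6.79 and 6.95 in the Ovol1 KO arrays, and 7.80 and 8.02 in the DKO arrays. Both DKO arrays were thus above the other 4 arrays. On the deposited linear scale the DKO intensities were 191 and 254, and those of the other 4 arrays ran from 102.7 to 127.9. The difference was 1.04 against Ovol1 KO (SE 0.18, 95% interval 0.61 to 1.47, limma adjusted p = 0.040), a 2.06-fold ratio. Against control it was 0.81 (SE 0.18, 95% interval 0.38 to 1.23, limma adjusted p = 0.072) and was not called. Without Ovol1 KO 1, Ovol1 KO 2, DKO 1 or DKO 2 the call against Ovol1 KO was lost, with values from 0.93 to 1.15 and limma adjusted p from 0.097 to 0.28. It was also lost with the values as deposited (0.99, limma adjusted p = 0.057). With Xist as a covariate, a fit whose slope rests on the Ovol1 KO pair, it was lost too (0.95, limma adjusted p = 0.31).

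The partner chains of Col5a2 were closer to the other groups. Col5a1, which encodes the chain that pairs with it, lay at 7.87 and 7.91 in control, 7.75 and 7.76 in Ovol1 KO, and 7.99 and 8.33 in DKO. The DKO arrays of Col5a1 did not overlap those of either other group, but the difference was 0.40 against Ovol1 KO (SE 0.18, limma adjusted p = 0.42) and 0.27 against control (SE 0.18, limma adjusted p = 0.61). Col5a3, the third chain of type V, differed by 0.01 from control (95% interval -0.49 to 0.52). Col3a1, the neighbour of Col5a2 in the RefSeq table, encodes type III collagen. It lay at 8.35 and 8.14 in Ovol1 KO and at 8.14 and 8.69 in DKO. These arrays overlapped, with a difference of 0.17 (SE 0.23, 95% interval -0.37 to 0.71, limma adjusted p = 0.77).

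The type I genes, which encode the main collagen of dermis, overlapped between groups as well. Col1a1 differed by 0.17 between DKO and Ovol1 KO (95% interval -0.34 to 0.68) and Col1a2 by 0.15 (95% interval -0.39 to 0.69). In both, and in Col3a1, DKO 2 was the highest of the 6 arrays, at 8.91 for Col1a1 and 8.57 for Col1a2, while DKO 1 lay within the range of the Ovol1 KO arrays for Col1a1 and below it for Col1a2. The remaining fibrillar genes are textbook products of cartilage or minor fibril components. Against control, Col2a1 differed by -0.13, Col11a1 by 0.16, Col11a2 by 0.01, Col24a1 by -0.15 and Col27a1 by 0.08, with SE from 0.17 to 0.20. None of these 5 passed in limma, and each 95% interval included 0. Over the 11 fibrillar genes the median difference was 0.12 against control and 0.17 against Ovol1 KO, with 9 and 11 of 11 above 0, beside medians of 0.02 and 0.09 over all genes.

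Of the fibroblast markers, collagens left out, most did not pass, and those called against control went in opposite directions. Their summed intensity was 12.8 and 12.1 on the log2 scale in control, 12.2 and 12.8 in Ovol1 KO, and 14.1 and 13.8 in DKO. Of this sum Vim, a filament gene of many cell types, alone gave 12.93 and 12.65 in DKO, 10.92 and 11.78 in Ovol1 KO, and 9.19 on its lowest array, control 2, on the log2 scale, with no call (limma adjusted p = 0.27 against control). Of the 12 markers 1 rose and 1 fell in DKO against control, and 10 did not pass in limma. The rise was that of Postn, a matrix protein, by 4.16 (SE 0.46, limma adjusted p = 0.0070), and Pdgfra, the platelet-derived growth factor receptor of fibroblasts, fell by 1.06 (SE 0.18, limma adjusted p = 0.031). Against Ovol1 KO 1 rose, 0 fell and 11 did not pass. In all, 7 of 12 lay above 0 against control and 6 of 12 against Ovol1 KO, with medians of 0.49 and 0.40 beside 0.02 and 0.09 over all genes. An unadjusted p below 0.05 was found for 6 of 12 in each comparison, where 14.5% and 13.3% of all genes had one. The DKO arrays did not overlap control in 7 above and 3 below, where 23.1% and 21.5% of all genes lay so. Against Ovol1 KO these were 6 and 3, where 26.1% and 16% did. Of the 12, Lum and Fap stayed between 5.02 and 5.78 on all 6 arrays. The part of fibroblasts in the Col5a2 difference was not tested.

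**Figure D2:**
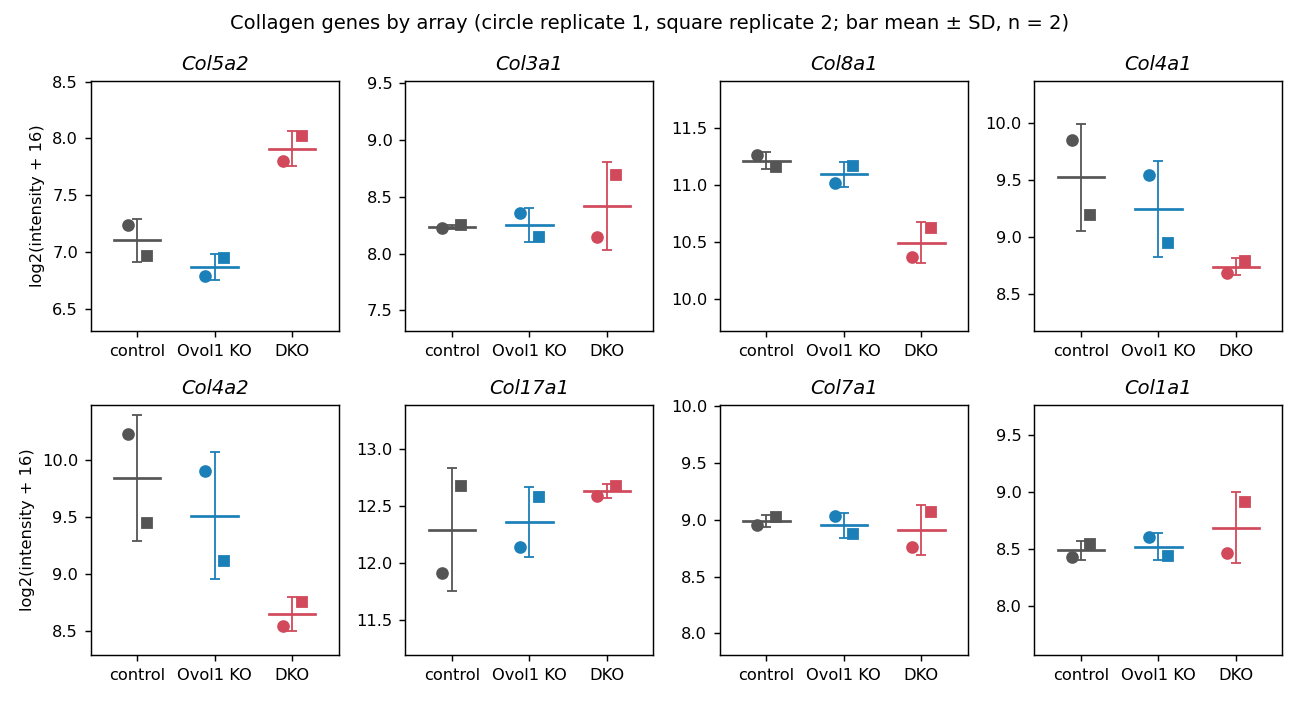
log2(intensity + 16) of 8 collagen genes on each array, with a circle for replicate 1, a square for replicate 2, and a bar at the group mean with its SD (n = 2); every panel spans 2.2 log2 units. Both DKO arrays stand above the other 4 for Col5a2 and below them for Col8a1, Col4a1 and Col4a2, whereas Col3a1, Col7a1 and Col1a1 overlap between the groups.

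Of the basement membrane collagens, 0 of 8 were called in any comparison, and the 2 with an unadjusted p below 0.05 against control were Col4a1 and Col4a2. They encode the chains of the type IV collagen found in nearly every basement membrane. Col4a1 lay at 9.85 and 9.19 in control, 9.54 and 8.94 in Ovol1 KO, and 8.68 and 8.79 in DKO. Col4a2 lay at 10.23 and 9.45, at 9.90 and 9.11, and at 8.54 and 8.75 in the same order. The 6 arrays fell in the same order for both genes, with control 1 highest and DKO 1 lowest, and the DKO arrays were below the other 4. The difference between DKO and control was -1.20 for Col4a2 (SE 0.35, 95% interval -2.02 to -0.37, limma adjusted p = 0.16). For Col4a1 it was -0.78 (SE 0.30, 95% interval -1.49 to -0.08, limma adjusted p = 0.28). Without control 2 the Col4a2 difference was -1.59 and was called (limma adjusted p = 0.049), while without control 1 it was -0.80 (limma adjusted p = 0.52). The Col4a1 difference was -0.45 without control 1 and -1.12 without control 2, and with Xist as a covariate it was -0.19 for Col4a1 and -0.40 for Col4a2.

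Col4a1 and Col4a2 are transcribed away from each other from adjoining starts. In the RefSeq promoter table of GRCm38.p6 their annotated starts span 22 bases, chr8:11312805-11312826. The stretch is printed on the plus strand, from the start of Col4a2 to that of Col4a1, since it joins the pair whose arrays fell in the same order:
Col4a1-Col4a2: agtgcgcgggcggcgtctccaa
The transcripts overlap over these bases, so the stretch is the first transcribed sequence of both genes.

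The other type IV genes did not follow this pair. Col4a3 and Col4a4, whose chains serve kidney and other specialised membranes, differed by -0.08 (95% interval -0.45 to 0.29) and -0.16 (95% interval -0.56 to 0.23) between DKO and control. The X-linked genes Col4a5 and Col4a6, which encode chains found in epidermal basement membrane, differed by -0.01 (95% interval -0.49 to 0.48) and 0.15 (95% interval -0.24 to 0.54). Col4a6 lay at 6.74 and 6.67 in control, 6.59 and 6.89 in Ovol1 KO, and 6.92 and 6.80 in DKO, so the 3 arrays with high Xist were above the other 3 by a small margin. Col15a1, a matrix proteoglycan, differed by -0.11 (95% interval -0.51 to 0.29). Col18a1, the source of the endostatin fragment, lay at 10.83 and 11.41 in control, 10.70 and 11.13 in Ovol1 KO, and 11.07 and 11.38 in DKO. Its groups overlapped, and the difference was 0.11 (95% interval -0.48 to 0.69), or -0.33 with Xist as a covariate (limma adjusted p = 0.93). Over the 8 basement membrane genes the median was -0.09 against control, with 2 above 0 and 6 below.

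Neither collagen of the hemidesmosome and anchoring fibril was called. Col17a1 encodes the transmembrane collagen that ties basal keratinocytes to the basement membrane. It lay at 11.91 and 12.67 in control, 12.14 and 12.57 in Ovol1 KO, and 12.58 and 12.67 in DKO. The DKO arrays overlapped the control arrays, whose 2 values were 0.76 apart, more than the difference of 0.34 between the groups (SE 0.25, 95% interval -0.26 to 0.94, limma adjusted p = 0.66). That difference was -0.04 without control 1 and 0.72 without control 2, neither of them called, and was -0.10 with Xist as a covariate. Against Ovol1 KO the Col17a1 difference was 0.27 (SE 0.25, limma adjusted p = 0.67), with both DKO arrays above both Ovol1 KO arrays by a small margin. Col7a1, the anchoring fibril gene, lay at 8.95 and 9.02 in control, 9.03 and 8.87 in Ovol1 KO, and 8.76 and 9.06 in DKO. Its differences were -0.08 against control (95% interval -0.54 to 0.39) and -0.04 against Ovol1 KO (95% interval -0.50 to 0.42). With Xist as a covariate the first was 0.07 (limma adjusted p = 0.98). A change of Col7a1 by 1 on this scale, in either direction, lies outside both intervals of the fit without Xist, and one of 0.3 lies inside them.

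The integrin gene Itgb4, whose product binds type XVII collagen in the hemidesmosome, fell in DKO where Col17a1 was not called. It lay at 11.97 and 12.08 in control, 12.13 and 11.88 in Ovol1 KO, and 11.17 and 11.30 in DKO, with no overlap between DKO and the others. The difference was -0.79 against control (SE 0.13, limma adjusted p = 0.030) and -0.77 against Ovol1 KO (SE 0.13, limma adjusted p = 0.040). Of the 7 measured hemidesmosome and laminin-332 partners 1 fell and 6 did not pass in each comparison, with a median of -0.30 against control and -0.24 against Ovol1 KO. Their DKO arrays did not overlap control in 2 above and 5 below, where 23.1% and 21.5% of all genes lay so. Against Ovol1 KO these were 2 and 4, where 26.1% and 16% did. An unadjusted p below 0.05 was found for 2 against control and 1 against Ovol1 KO, where 14.5% and 13.3% of all genes had one. Itgb4 kept its call against control without either Ovol1 KO array, lost it without either control or either DKO array (limma adjusted p from 0.059 to 0.16), and lost it without the variance trend (limma adjusted p = 0.065). Against Ovol1 KO the call was lost without the trend and without any 1 array of the KO or DKO groups.

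Of the remaining classes, Col8a1 stood furthest from its neighbours. It encodes a short chain network collagen of vessel wall and eye membranes. It lay at 11.26 and 11.16 in control, 11.01 and 11.17 in Ovol1 KO, and 10.36 and 10.62 in DKO. Both DKO arrays were below the other 4. The difference was -0.72 against control (SE 0.16, 95% interval -1.10 to -0.35, limma adjusted p = 0.068) and -0.60 against Ovol1 KO (SE 0.16, 95% interval -0.98 to -0.23, limma adjusted p = 0.14). With the values as deposited the first was -0.76 and was called (limma adjusted p = 0.045). With only the 4 arrays compared it was not called (limma adjusted p = 0.11), and with 1 array left out it ran from -0.85 to -0.59. The other short chain genes, Col8a2 and Col10a1, differed by 0.03 (95% interval -0.53 to 0.58) and 0.05 (95% interval -0.31 to 0.41) from control.

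Upstream sequence was searched for CCGTTA, the core site of Ovo-type zinc fingers, and for CACCTG, the E-box bound by Zeb and Snail repressors, on both strands. The windows were the 250 bases before each RefSeq start, 38 windows of 35 collagen genes. The other collagen genes, Col5a2 among them, had no window and were not searched. CCGTTA was in 1 collagen window, that of Col10a1, and in 2.18% of all 32851 windows. CACCTG was in 4, those of Col4a4, Col16a1, Col6a5 and Col8a1, and in 17.2% of all windows. The windows of Col8a1, on the minus strand at chr16:57754738-57754987, and of Col17a1, on the minus strand at chr19:47692043-47692292, are printed to set the gene with the smallest p against control beside the hemidesmosomal one. Capitals mark CACCTG, and the motif starts 18 bases before the start of Col8a1:
Col8a1: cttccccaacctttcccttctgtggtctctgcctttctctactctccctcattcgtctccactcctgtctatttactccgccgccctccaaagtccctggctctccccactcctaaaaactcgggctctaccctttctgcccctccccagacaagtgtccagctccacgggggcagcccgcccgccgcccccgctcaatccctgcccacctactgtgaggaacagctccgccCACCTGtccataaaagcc
Col17a1: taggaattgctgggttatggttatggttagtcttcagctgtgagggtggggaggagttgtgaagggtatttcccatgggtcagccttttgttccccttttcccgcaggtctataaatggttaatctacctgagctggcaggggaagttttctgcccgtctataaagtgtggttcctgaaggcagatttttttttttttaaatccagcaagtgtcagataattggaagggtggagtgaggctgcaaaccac
The Col17a1 window holds neither motif. A match is a run of letters and was not tested as a binding site.

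No FACIT, beaded filament or other remaining collagen was called. Col12a1, a FACIT collagen on the surface of fibrils, lay at 9.53 and 9.38 in control, 10.19 and 9.19 in Ovol1 KO, and 9.78 and 9.74 in DKO. The 2 Ovol1 KO arrays were 0.99 apart and spanned the other groups, and the difference between DKO and control was 0.31 (SE 0.32, limma adjusted p = 0.79). With Xist as a covariate it was 1.32 (SE 0.32, limma adjusted p = 0.50), and the difference from Ovol1 KO moved from 0.07 to 0.59 (limma adjusted p = 0.67), neither of them called. The 9 FACIT genes ran from -0.10 to 0.31 in DKO against control, with a median of 0.02. The 6 beaded filament genes, which encode the type VI microfibrils, ran from -0.20 for Col6a1 to 0.02, with a median of -0.13. Among the other transmembrane genes the smallest p was that of Col23a1, with a difference of 0.11 (SE 0.22, limma adjusted p = 0.91), and among the last 2 genes that of Col26a1, with -0.28 (SE 0.19, limma adjusted p = 0.59). In all, 28 of the 44 collagens had a range under 0.5 over the 6 arrays, and the share of all genes under that range was not computed.

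Set class against class, the fibrillar, basement membrane and hemidesmosomal genes had 0, 0 and 0 calls in DKO against control and 1, 0 and 0 in DKO against Ovol1 KO. In the first comparison the DKO arrays did not overlap the control arrays in 3 fibrillar genes above and 1 below, in 1 basement membrane gene above and 4 below, and in 0 hemidesmosomal genes. Over all 44 these counts were 5 above, or 11.4%, and 9 below, or 20.5%, where 23.1% and 21.5% of all genes lay so. With the values as deposited, 4 lay above and 4 below, where 20.9% and 18.3% of all genes did. Against Ovol1 KO they were 5 above and 4 below, where 26.1% and 16% of all genes lay so. By class these were 2 fibrillar genes above and 0 below, 0 basement membrane genes above and 2 below, and 1 hemidesmosomal gene above, Col17a1, and 0 below. The difference between the classes themselves was not tested, since it would be a test over members.

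The loss of Ovol1 alone gave no called collagen. In Ovol1 KO against control limma called 0 of 44, where 0% of all genes were called, and 0 collagens had an unadjusted p below 0.05, where 0.813% of all genes did. The differences ran from -0.34 for Col19a1 to 0.24 for Col12a1, and the smallest unadjusted p, 0.13, was that of Col24a1. Of the 44, 37 were below 0, with a median of -0.14 beside -0.06 over all genes. With the values as deposited, 33 were below 0, with a median of -0.09 beside -0.02. The Ovol1 KO arrays lay below both control arrays without overlap in 16 genes, or 36.4%, where 18.3% of all genes did, and above them in 0, where 5.8% did. With the values as deposited, 11 lay below, where 14.1% of all genes did, and 1 above, where 8.86% did. Col5a2 was one of the 16, with a difference of -0.23 (95% interval -0.66 to 0.19), so its level was lowest in Ovol1 KO.

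Several collagens differed between the replicates of a group. For Col17a1 and Col18a1 the control replicates were further apart than DKO and control, which differed by 0.34 and 0.11. For Col4a1 and Col4a2 they were less far apart than DKO and control, which differed by -0.78 and -1.20. Col4a1 and Col4a2 were higher on replicate 1 than on replicate 2 by 0.67 and 0.78 in control and by 0.59 and 0.79 in Ovol1 KO, but lower by 0.11 and 0.21 in DKO. Col17a1 went the other way, with replicate 1 minus replicate 2 at -0.76, -0.44 and -0.09 for control, Ovol1 KO and DKO, and Col18a1 at -0.58, -0.43 and -0.31. Replicate 2 was above replicate 1 in all 3 groups in 27 of the 44 collagens, or 61.4%, where 27.1% of all genes did so. The opposite held for 1 collagen, Col12a1, where 15.3% of all genes did so. With the values as deposited, 25 collagens and 26.2% of all genes had replicate 2 above in all 3 groups.

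**Figure D3:**
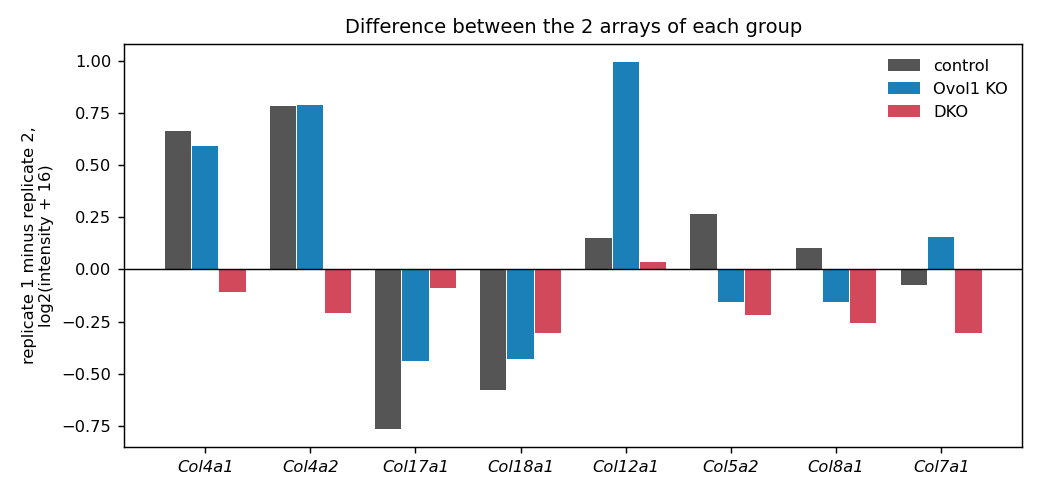
Replicate 1 minus replicate 2 in log2(intensity + 16) within each group for 8 collagen genes, 1 bar for each group. Col4a1 and Col4a2 are above 0 by 0.59 to 0.79 in control and Ovol1 KO and below 0 in DKO, while Col17a1 and Col18a1 are below 0 in all 3 groups.

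Some marker lists of other cells differed by replicate number too, but not all in the same direction. The summed intensity of 8 melanocyte markers was 12.3, 12.7 and 10.9 on the log2 scale on replicate 1 and 10.5, 10.5 and 10.1 on replicate 2, with the groups in the same order. That of 7 endothelial markers was 11.1, 10.7 and 9.45 on replicate 1 and 10.0, 10.0 and 9.65 on replicate 2. Of the endothelial markers, Kdr, a receptor of vascular endothelial growth factor named here with its values known, lay at 10.49 and 8.51 in control, 9.95 and 8.63 in Ovol1 KO, and 6.79 and 6.65 in DKO. The adhesion gene Pecam1 lay at 7.67 and 6.75, at 7.61 and 6.78, and at 6.20 and 5.98 in the same groups, and the defining endothelial cadherin Cdh5 stayed between 6.77 and 7.06. Of the 7 markers 0 passed in limma in either DKO comparison, and Kdr and Pecam1 were those with an unadjusted p below 0.05. The other 5 ran from -0.04 for Tie1 to 0.28 for Emcn against control. The median of the 7 was -0.03 against control, with 3 above 0, and 0.13 against Ovol1 KO, with 5 above 0. Of the melanocyte markers 8 of 8 were below 0 in both DKO comparisons, with medians of -0.81 and -1.03, and Kit, a growth factor receptor, fell by 1.43 against control (SE 0.25, limma adjusted p = 0.035) and fell by 2.14 against Ovol1 KO (SE 0.25, limma adjusted p = 0.011). Of the 3 Schwann cell markers measured, Mbp, a myelin gene, fell by 1.15 against control (SE 0.16, limma adjusted p = 0.015) and fell by 1.07 against Ovol1 KO (SE 0.16, limma adjusted p = 0.023), and 2 did not pass. Of the smooth muscle and pericyte markers 6 of 7 were below 0 against control, down to -2.08 for Cnn1 (limma adjusted p = 0.13), with a median of -0.22 and 2 at an unadjusted p below 0.05. Against Ovol1 KO 3 of 7 were below 0. The part of these cells in the differences of Col4a1 and Col4a2 was not tested.

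Few of the genes that act on collagen chains were called in DKO. Of 20 measured genes for collagen folding and modification 1 rose, 1 fell and 18 did not pass against control. Against Ovol1 KO 1 rose, 0 fell and 19 did not pass. Of all genes, 0.943% were called higher and 2.26% lower against control, and 0.657% and 1.49% against Ovol1 KO. P3h4, a member of the prolyl 3-hydroxylase family that serves lysine hydroxylation in the endoplasmic reticulum, lay at 10.63 and 10.42 in control, 10.15 and 10.73 in Ovol1 KO, and 11.83 and 11.67 in DKO. Both DKO arrays were above the other 4, and P3h4 rose by 1.23 against control (SE 0.22, limma adjusted p = 0.034) and by 1.31 against Ovol1 KO (SE 0.22, limma adjusted p = 0.035). Plod2, the lysyl hydroxylase of collagen telopeptides, lay at 10.41 and 10.49 in control, 10.19 and 10.24 in Ovol1 KO, and 9.25 and 8.35 in DKO. It fell by 1.65 against control (SE 0.29, limma adjusted p = 0.034), while its difference from Ovol1 KO, -1.42, was not called (limma adjusted p = 0.070). The median of the 20 was 0.15 against control and 0.22 against Ovol1 KO, beside 0.02 and 0.09 over all genes. In each comparison 8 had an unadjusted p below 0.05, where 14.5% and 13.3% of all genes did. The DKO arrays did not overlap control in 8 above and 2 below, where 23.1% and 21.5% of all genes lay so. Against Ovol1 KO these were 10 and 1, where 26.1% and 16% did.

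Of 11 measured genes for procollagen processing and cross-linking 1 fell and 10 did not pass against control, and 0 passed in limma against Ovol1 KO, with 3 at an unadjusted p below 0.05. Pcolce2, an enhancer of the proteinase that trims procollagen, lay at 10.86 and 10.31 in control, 10.59 and 10.20 in Ovol1 KO, and 8.80 and 7.54 in DKO. It fell by 2.42 against control (SE 0.42, limma adjusted p = 0.032), and its difference from Ovol1 KO was -2.22 (SE 0.42, limma adjusted p = 0.052). The latter was called with an offset of 64 (-2.04, limma adjusted p = 0.047) and with the values as deposited (-2.19, limma adjusted p = 0.031), and both Pcolce2 and Plod2 were called against Ovol1 KO without either control array or without DKO 1. Of 9 measured receptors and uptake genes 1 rose and 8 did not pass in each comparison. Ddr2, a tyrosine kinase receptor for fibrillar collagen, lay at 7.20 and 7.13 in control, 7.46 and 6.92 in Ovol1 KO, and 9.02 and 9.54 in DKO, and rose by 2.11 against control (SE 0.26, limma adjusted p = 0.0094).

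These calls rest on few arrays. Against control, P3h4 lost its call without control 2, DKO 1 or DKO 2, Plod2 lost it with every single array left out other than DKO 1, and Pcolce2 without control 1, either Ovol1 KO array or DKO 2, while Ddr2 kept it with each array left out. Against Ovol1 KO, P3h4 lost it without Ovol1 KO 1 or either DKO array, and Ddr2 without Ovol1 KO 2 or DKO 2. With Xist as a covariate none of the 5 was called against control, where 3 of all genes were called higher and 5 lower. The differences under that fit were 0.64 for P3h4, -0.54 for Itgb4, -2.01 for Pcolce2, -1.69 for Plod2 and 2.65 for Ddr2. In the main fit they were 1.23, -0.79, -2.42, -1.65 and 2.11 in the same order.

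**Figure D4:**
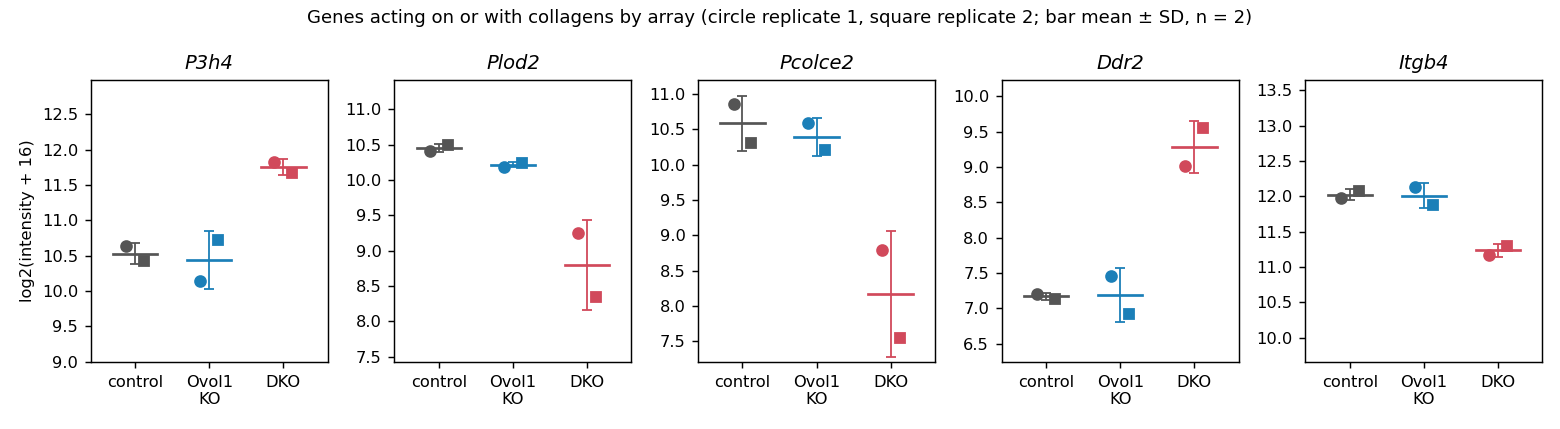
log2(intensity + 16) of the 5 called genes among those that modify, process or bind collagens, on each array, with a circle for replicate 1, a square for replicate 2, and a bar at the group mean with its SD (n = 2). Both DKO arrays stand above the other 4 for P3h4 and Ddr2 and below them for Plod2, Pcolce2 and Itgb4.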

How the data were processed

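The authors deposited linear intensities, 1 for each probe set and array. Affymetrix Expression Console 1.1.1 and PLIER 2.0 are named per the submitters' processing notes, and the correction for background was not stated. There were 35556 probe sets with 0 missing values and array medians from 174.2 to 203.6. The number of arrays limits the precision.

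After adding 16, log2 was taken, so differences understate the change of dim genes. Array quartiles differed by up to 0.218, above the limit of 0.2, and all probe sets were quantile-normalized. Single-symbol probe sets gave 19938 genes, and those with several symbols (1621) or none (12146) were left out. limma 3.58.1 in R 4.3.3 fitted 3 group means over 6 arrays with a variance trend. The procedure was tested on simulated data. Alternatives were offsets of 1 and 64, no quantile normalization, omission of the dimmest 30% of genes, eBayes untrended or robust, probe set means, fits of 4 arrays, a replicate block, Xist as a covariate, and omission of each array.

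The members, classes and lists were chosen with earlier results of these data known. The rule named every member of the 3 main classes, every other called member, the smallest p in each other class, and each called gene of the other lists.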

Additional observations from a re-analysis of the deposited data

How the results depend on the processing

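The count of called collagens against control became 1 with the values as deposited and with the replicate block (Col8a1 in both, -0.72 with limma adjusted p = 0.048 under the block), and with 1 array left out it was between 0 and 1 (Col4a2 without control 2). Against Ovol1 KO the count became 0 with the values as deposited and with Xist as a covariate, and with 1 array left out it was between 0 and 1, since Col5a2 was called without either control array alone. Against control in Ovol1 KO it was 0 in limma under every alternative run. There were 495 values of the 31 named genes per comparison. Only a gene called in the main fit or in the alternative could reverse a call, and most values carried none. In both DKO comparisons 0 reversed a call. No named gene was called in Ovol1 KO against control under any fit, so a reversal could not occur there. In Ovol1 KO against control 43 values changed sign, in DKO against control 27 and in DKO against Ovol1 KO 29, all of differences no larger than 0.34 in size. The cause was not tested. The replicate numbers are only shared labels: with 2 numbers, differences between replicates correlated over genes at 0.69 between control and Ovol1 KO, 0.15 between control and DKO and 0.087 between Ovol1 KO and DKO. The replicate block moved the calls over all genes against control from 188 higher and 451 lower to 301 and 768, and against Ovol1 KO from 131 and 298 to 225 and 580. It also called Pcolce2 against Ovol1 KO (limma adjusted p = 0.010). Xist as a covariate left 3 higher and 5 lower against control, and 18 and 56 against Ovol1 KO. The slope of that fit rests on the 2 Ovol1 KO arrays, so these losses do not tell Xist from genotype. With 1 array left out, the counts against control lay between 67 and 188 higher and between 189 and 547 lower, with the fewest higher without DKO 1 and the fewest lower without DKO 2. Against Ovol1 KO they lay between 23 and 235 higher and between 65 and 506 lower, with the fewest of both without Ovol1 KO 1, and with only the 4 arrays compared they were 239 and 499.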

Other observations

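Of the 44 collagen genes 2 had a second probe set. That of Col6a5 differed by -0.04 between DKO and control, beside -0.06 for the brighter one, and that of Col6a6 by 0.06, beside -0.16, so the sign differed between the probe sets of Col6a6. The lysyl oxidase-like gene Loxl4, which encodes a collagen cross-linking enzyme and is named here with its values known, lay at 9.99 and 8.78 in control, 10.31 and 8.82 in Ovol1 KO, and 7.44 and 7.59 in DKO. Its difference from control was -1.87 (limma adjusted p = 0.16).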
